A study of Homo sapiens with 12 samples.

Results

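Cholesterol synthesis, uptake and sterol sensing are described here through 28 genes, chosen by name, of the 21446 genes that the deposited tables of the human glioblastoma line LN229 list once rows of 1 symbol are summed. All 28 are protein-coding, and all passed the filter of a mean of at least 1 TPM (a transcript level corrected for gene length and for the total of the library) over the 12 libraries, as did 11306 genes in all. LN229 is an established cell line, labelled IDH wildtype, that was kept in DMEM with fetal bovine serum and antibiotics. The 6 control cultures are labelled as having had no treatment, although a legend in the study calls its controls vehicle, and the 6 metformin cultures had 100 mM metformin in the same medium for 5 h. Metformin is a biguanide given to people with diabetes, and the study asked how the transcriptome of these cells changed with it. The study describes the 12 libraries as independent experiments, all of 1 cell line.

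Cells make cholesterol from acetyl-CoA through mevalonate, farnesyl diphosphate, squalene and lanosterol. The supply is set by sensors in the membrane of the endoplasmic reticulum: when sterols are low, SCAP carries the SREBP transcription factors to the Golgi, where they are cut free to switch on the synthesis genes, and when sterols are high the INSIG proteins hold SCAP back. When oxysterols accumulate, LXR receptors switch on efflux through ABCA1 and the ubiquitin ligase encoded by MYLIP, which removes lipoprotein receptors from the cell surface. Glioblastoma cells are known to depend on cholesterol that they import and to make little of it where it is supplied.

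The members fell into 7 genes of the early steps to farnesyl diphosphate, 11 genes from squalene to cholesterol, 5 genes of sterol sensing, and 5 genes of transport and uptake control. Levels spanned a wide range in control cultures, from a median of 1.55 TPM for ABCA1 to 221 TPM for FDPS, which makes farnesyl diphosphate. EBP, ACAT2, NPC2 and PMVK also had control medians above 100 TPM. Only 64.6% of the exon reads of EBP were placed uniquely, against 90.1% for ACAT2 and at least 99.4% for the other members, so EBP may share reads with near-identical copies and its values are uncertain.

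Exon reads totalled 19583535 to 21836186 in the control libraries and 14331617 to 19516144 in the metformin libraries. The lowest total belonged to metformin replicate 1, in which 38.1% of exon reads crossed a junction, against 44.7% to 48.1% in the other 11 libraries, and 4.15% of gene reads lay in introns, against 4.87% to 7.48%. This library was the lowest of the metformin group for 21 of 28 members and the highest for 5, and it was the lowest for 77.6% of all genes tested. Counts of members, and values of members whose call changes, are therefore also given without it. Other values that move without it are given only in part, and the part that its quality plays in the results was not tested. Of the glioma markers, VIM (450 to 1110 TPM), CD44 (91.6 to 293 TPM), NES (22.3 to 61.3 TPM) and OLIG2 (2.67 to 8.97 TPM) were present, while SOX2, GFAP and S100B stayed under 1 TPM in every library. Markers of epithelium, endothelium and liver and PTPRC of blood cells stayed under 1 TPM too, and HBB of red blood cells reached at most 3.54 TPM.

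MYLIP and INSIG1 rose with metformin and INSIG2 and MVK fell, both by limma on log2(TPM + 1) and by edgeR on exon reads. By limma, 2 members were higher and 6 lower at an adjusted p under 0.05, where 8.00% of all genes tested were higher and 41.8% lower. The median log2 fold change of the members was -0.14, against -0.365 for all genes. Since TPM adds up to 1 fixed total per library, changes on this scale are read against that median. By edgeR on exon reads, whose scaling is set by the bulk of the genes and whose median over all genes was 0.03, 12 members were higher and 2 lower, against 24.5% and 26.0% of all genes. The median of the members was then 0.31. After median-ratio scaling of TPM, limma called 13 members higher and 2 lower, against 23.4% and 25.5% of all genes. Without metformin replicate 1 limma called 10 higher and 9 lower, against 17.1% and 49.3% of all genes. Without that library edgeR called 17 higher and 3 lower, against 32.4% and 34.3%.

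**Figure D1:**
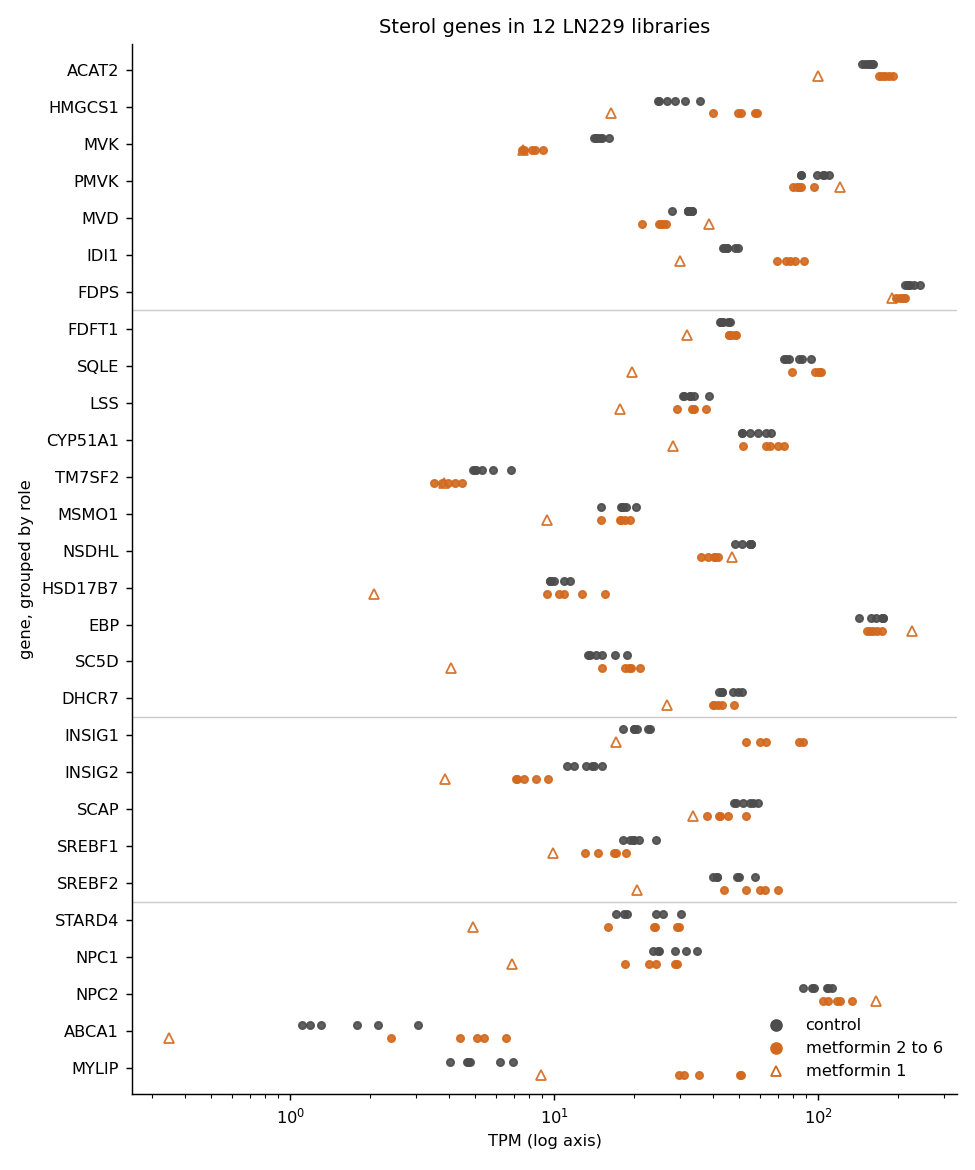
TPM on a log axis (horizontal) of the 28 genes (vertical, grouped by role) in each library: grey points are the 6 controls, filled orange points are metformin replicates 2 to 6 and the open triangle is metformin replicate 1. All metformin libraries lie above all controls for MYLIP only, and metformin replicate 1 lies apart from the other 5 for many genes.

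TPM ranges of the groups did not overlap for 6 members. MYLIP was above in all metformin libraries, and MVK, FDPS, TM7SF2, NSDHL and INSIG2 were below in all of them, where 4.69% of all genes were above and 37.3% below. With metformin replicate 1 left out, 5 members were above (ACAT2, HMGCS1, IDI1, INSIG1 and MYLIP) and 6 below (the same 5 and MVD), against 11.0% and 39.3% of all genes.

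**Figure D2:**
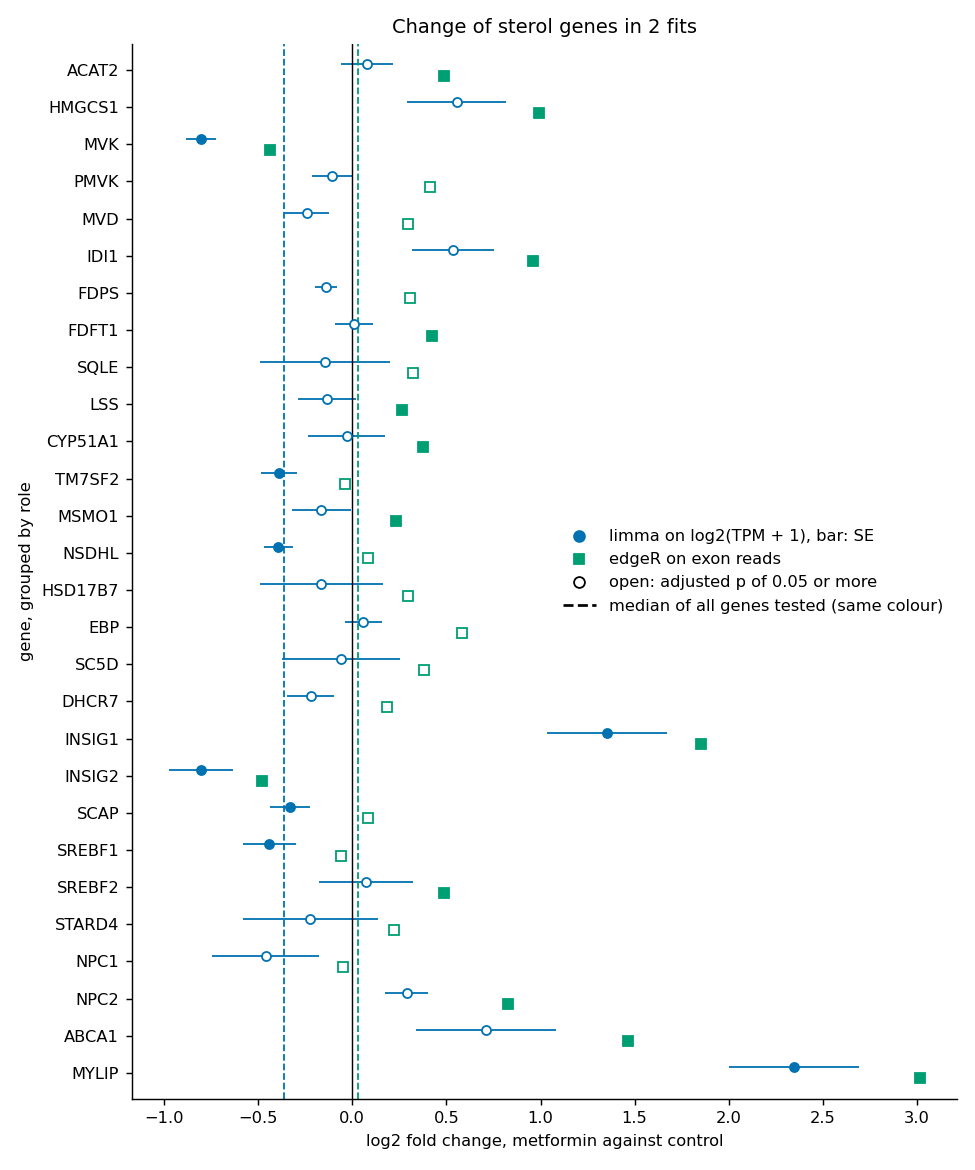
Log2 fold change of metformin against control (horizontal) for the 28 genes (vertical, grouped by role), by limma on log2(TPM + 1) (blue circles, bars are 1 SE) and by edgeR on exon reads (green squares), filled where the adjusted p is under 0.05. Dashed lines mark the medians of all genes, -0.365 and 0.03, and the edgeR values lie to the right of the limma values for every gene.

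Promoter windows of the members were read from RefSeq to show the bases beside which these changes were measured. The table holds windows of 250 bases before to 50 after a start site (GRCh38.p14), and 25 of the 28 members have 1 or more, 32 windows in all, while ACAT2, FDFT1 and SQLE have none. Both strands were searched for 3 motifs: CCAAT, the box bound by NF-Y, a partner of SREBP; GGGCGG, the GC box bound by Sp1; and TCACNCCAC, a form of the sterol regulatory element. CCAAT was found in 62.5% of the member windows (18 genes) and 34.6% of all 35116 windows of that length. GGGCGG was found in 93.8% (24 genes) and 45.0%. The windows compared against were not limited to genes that passed the TPM filter, as all members did. The sterol element in this form was found in 1 member window, that of SREBF2, and in 1.13% of all windows. Windows of 1 gene can overlap, CCAAT can overlap its own reverse complement, and each window was counted once. A match is a description of the letters, not a bound site.

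Stretches are shown for MYLIP, INSIG1, HMGCS1, IDI1 and ABCA1, whose exon reads rose by edgeR, and for INSIG2, whose exon reads fell. They were chosen after the values were seen and kept to bases that GENCODE release 29 annotates as no exon, with CCAAT or its reverse complement ATTGG in capitals.
MYLIP, chr6:16128906-16129055, plus strand: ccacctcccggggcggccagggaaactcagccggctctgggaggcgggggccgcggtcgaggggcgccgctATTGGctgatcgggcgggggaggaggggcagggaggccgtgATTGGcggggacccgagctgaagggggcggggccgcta
INSIG1, chr7:155297698-155297767, plus strand: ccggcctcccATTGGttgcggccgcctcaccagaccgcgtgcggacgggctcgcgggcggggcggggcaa
HMGCS1, chr5:43313523-43313592, minus strand: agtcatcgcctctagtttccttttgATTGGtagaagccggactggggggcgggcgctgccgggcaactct
IDI1, chr10:1049230-1049299, minus strand: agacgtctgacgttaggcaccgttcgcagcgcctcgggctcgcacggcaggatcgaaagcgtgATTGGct
ABCA1, chr9:104928266-104928335, minus strand: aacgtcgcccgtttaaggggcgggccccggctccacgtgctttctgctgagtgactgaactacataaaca
INSIG2, chr2:118088291-118088440, plus strand: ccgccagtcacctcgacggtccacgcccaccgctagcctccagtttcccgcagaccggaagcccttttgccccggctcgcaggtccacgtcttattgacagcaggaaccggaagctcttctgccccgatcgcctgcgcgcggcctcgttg
ATTGG stands in the first 4 stretches, with 2 copies in that of MYLIP. The windows of ABCA1, which rose by edgeR, and INSIG2, which fell, hold no CCAAT on either strand. Another window of HMGCS1 and another of IDI1, from which no stretch is shown, hold none either. The window of MVK, which fell in both fits, holds 5 copies, as does that of NSDHL, more than any other member window. The stretch of MVK overlaps annotated exons and is not shown. Copies of CCAAT were thus found in windows of members that rose and of members that fell. The 9 letters of the sterol element in the SREBF2 window are given here in capitals, with the bases around them. All 30 bases of this stretch lie in annotated exons, so it does not follow the rule used for the stretches above.
SREBF2, chr22:41832962-41832991, plus strand: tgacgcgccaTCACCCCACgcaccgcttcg

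Of the sterol sensors, INSIG1 rose and INSIG2 fell. INSIG1 retains SCAP in the endoplasmic reticulum and is itself a target of SREBP. Its lowest, median and highest values were 18.2, 20.3 and 23.1 TPM in control and 17.1, 61.7 and 87.2 TPM in metformin. The lowest metformin value was that of replicate 1, which lay below all controls, and the other 5 libraries, from 53.0 TPM, lay above them. The log2 fold change was 1.35 ± 0.32 (SE, n = 6 each) with an adjusted p of 0.00346 by limma, and 1.85 with an adjusted p of 1.96e-06 by edgeR. INSIG1 stayed higher and past the threshold under every alternative of both fits.

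INSIG2, the second retention protein and one that SREBP is not known to switch on, moved the other way. Its values were 11.2, 13.5 and 15.2 TPM in control and 3.85, 7.47 and 9.47 TPM in metformin, with no overlap. Its log2 fold change was -0.80 ± 0.17 (SE, n = 6 each), adjusted p = 0.00158, by limma and -0.48, adjusted p = 0.000852, by edgeR. Reads across junctions gave -0.05, which was not called.

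SREBF2 encodes the SREBP that acts mainly on cholesterol genes. It had 40.0, 45.2 and 57.3 TPM in control and 20.6, 56.7 and 70.3 TPM in metformin, and the groups overlapped. Its log2 fold change was 0.07 ± 0.25 by limma (adjusted p = 0.823) and 0.49 by edgeR (adjusted p = 0.00224). Limma called it higher without metformin replicate 1, at 0.31 (adjusted p = 0.0387). Its reads across junctions gave 0.29 by edgeR, which was not called. SREBF1, whose product acts mainly on fatty acid genes, and SCAP, the escort protein, were called lower by limma, with -0.44 ± 0.14 (adjusted p = 0.0201) and -0.33 ± 0.11 (adjusted p = 0.0223). Their edgeR values were -0.06 and 0.09, neither past the threshold, and both limma values lie near the median of all genes. The call of SCAP was lost when control replicate 2, control replicate 3 or metformin replicate 2 was left out, at -0.31 to -0.30.

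Among transport genes, MYLIP had the largest change of the 28 members. Its values were 4.03, 4.76 and 6.98 TPM in control and 8.90, 33.2 and 50.9 TPM in metformin. All metformin libraries lay above all controls, and the lowest of them was again replicate 1. The log2 fold change was 2.35 ± 0.34 (SE, n = 6 each), adjusted p = 0.000108, by limma and 3.02, adjusted p = 2.61e-07, by edgeR. It was past the threshold under every alternative of both fits.

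ABCA1, which exports cholesterol to lipid-poor apolipoproteins, was the lowest member in control. Its values were 1.11, 1.55 and 3.05 TPM in control and 0.348, 4.73 and 6.58 TPM in metformin. Replicate 1 was below all controls, and the other metformin libraries, from 2.40 TPM, overlapped the highest control. By limma the log2 fold change was 0.71 ± 0.37 (adjusted p = 0.129), and without replicate 1 it was 1.05 and called. By edgeR it was 1.47 with an adjusted p of 0.00898. The exon reads of ABCA1 went down to 29 in 1 library, so its level there is known only roughly.

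NPC2, the soluble protein that takes cholesterol out of lysosomes, had 87.6, 102 and 112 TPM in control and 104, 119 and 166 TPM in metformin, with overlap. It was called higher by edgeR (0.83, adjusted p = 0.0253) and had 0.29 ± 0.11 by limma (adjusted p = 0.0504). Without metformin replicate 1 both fits called it higher, at 0.45 by edgeR (adjusted p = 0.00842) and 0.21 by limma (adjusted p = 0.0365). The edgeR call was lost without control replicate 2, 3 or 4, at 0.76 to 0.80, and metformin replicate 1 held its highest value. Reads across junctions gave 1.14 for NPC2, which was not called. NPC1, its membrane partner, and STARD4, a carrier of cholesterol between membranes, passed neither fit, with edgeR values of -0.05 and 0.22. Without replicate 1, STARD4 was called higher by edgeR, at 0.37.

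Of the early steps, HMGCS1 and IDI1 were called higher by edgeR at about the same size, and MVK fell. HMGCS1, which makes HMG-CoA, had 24.7, 27.7 and 35.5 TPM in control and 16.4, 50.2 and 58.3 TPM in metformin. IDI1, the isopentenyl diphosphate isomerase, had 43.4, 45.1 and 49.7 TPM in control and 29.9, 76.8 and 88.3 TPM in metformin. For both genes replicate 1 lay below all controls and the other 5 metformin libraries lay above all of them. By edgeR the log2 fold change was 0.99 for HMGCS1 (adjusted p = 1.84e-05) and 0.96 for IDI1 (adjusted p = 7.97e-07). By limma it was 0.56 ± 0.26 (adjusted p = 0.0981) and 0.53 ± 0.22 (adjusted p = 0.0577), and without replicate 1 both were called, at 0.82 and 0.76.

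MVK phosphorylates mevalonate. Its values were 14.1, 14.7 and 16.1 TPM in control and 7.56, 7.93 and 9.03 TPM in metformin, with no overlap and with replicate 1 within the range of the others. Its log2 fold change was -0.80 ± 0.08 (SE, n = 6 each), adjusted p = 3.63e-06, by limma and -0.44, adjusted p = 0.0317, by edgeR. The edgeR call was lost when any of control replicates 1, 4, 5 and 6 or metformin replicates 2 to 6 was left out, at -0.44 to -0.39. It held without metformin replicate 1, at -0.62 (adjusted p = 4.87e-06). With DESeq2 size factors the edgeR call was lost too, at -0.41 (adjusted p = 0.0569). The limma call was lost after quantile normalization, at -0.29 (adjusted p = 0.163). MVK overlaps MMAB (11.5 TPM), a gene on the opposite strand, and the sources used here do not say whether strand was used in counting.

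ACAT2, the cytosolic thiolase that joins acetyl-CoA units, had 146, 155 and 161 TPM in control and 100.1, 177 and 192 TPM in metformin, where replicate 1 was below all controls and the others, from 169.8 TPM, above them. It was called higher by edgeR (0.49, adjusted p = 4.14e-05) and had 0.08 ± 0.14 by limma (adjusted p = 0.646). Limma called it higher too without metformin replicate 1, at 0.22 (adjusted p = 0.000553). It overlaps TCP1 (551 TPM) and SOD2 on the opposite strand. The remaining early genes passed neither fit: the kinase PMVK, the decarboxylase MVD and FDPS had limma values of -0.24 to -0.11 and edgeR values of 0.30 to 0.41. Without replicate 1 all 3 were called lower by limma, at -0.34 for MVD, -0.19 for PMVK and -0.12 for FDPS, against a median of -0.22 for all genes in that fit. Their edgeR values without it were -0.12 for MVD, 0.04 for PMVK and 0.12 for FDPS, none called.

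From squalene to cholesterol, edgeR called 4 of 11 genes higher and none lower, each by less than 0.5 on the log2 scale, against 24.5% and 26.0% of all genes. These were FDFT1, which makes squalene (0.42, adjusted p = 0.00136), LSS, which closes it to lanosterol (0.27, adjusted p = 0.000976), CYP51A1, which demethylates lanosterol (0.38, adjusted p = 0.000548), and MSMO1, a sterol methyl oxidase (0.23, adjusted p = 0.0141). Their limma values lay between -0.17 and 0.01 and none was called. Reads across junctions gave 0.37 for FDFT1 (adjusted p = 0.0172, edgeR). They gave -0.28 for LSS, 0.36 for CYP51A1 and 0.04 for MSMO1, none of them called. SQLE, the epoxidase that opens the sterol branch, had 74.2, 80.9 and 93.5 TPM in control and 19.7, 98.9 and 102 TPM in metformin. Its value in replicate 1 was the lowest of all 12 libraries, and the other 5 overlapped the controls. SQLE passed neither fit with all libraries, and without replicate 1 both called it higher, at 0.22 by limma and 0.47 by edgeR. HSD17B7, SC5D and DHCR7 were likewise called higher by edgeR without replicate 1, at 0.45, 0.52 and 0.13, and limma then called SC5D higher, at 0.27.

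Limma called TM7SF2, one of the sterol reductases, and NSDHL, a sterol dehydrogenase, lower, with log2 fold changes of -0.39 ± 0.09 (adjusted p = 0.00428) and -0.39 ± 0.08 (adjusted p = 0.00105), but their edgeR values were -0.04 and 0.09, not called. EdgeR called NSDHL lower without metformin replicate 1, at -0.21 (adjusted p = 0.0479). NSDHL had 48.3, 55.0 and 55.6 TPM in control and 35.8, 40.5 and 46.9 TPM in metformin, without overlap. TM7SF2 starts within the end of VPS51 (43.3 TPM), a gene on the same strand. EBP, HSD17B7, SC5D and DHCR7, which act on the last double bonds and side groups of the ring, passed neither fit with all libraries, with edgeR values from 0.18 for DHCR7 to 0.58 for EBP. Without metformin replicate 1 the edgeR value of EBP was 0.21, not called.

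Intron reads, which come mostly from RNA not yet spliced, were a second readout of the same libraries. All 28 members had a mean of at least 10 such reads and entered the edgeR test over 11118 genes. There 15 members were higher and 3 lower, against 31.3% and 30.2% of all genes, with a median log2 fold change of 0.54 against 0.05. Without metformin replicate 1 the counts were 16 and 5, against 36.4% and 38.0% of all genes. The calls gained were NPC2, higher at 0.54, and PMVK and DHCR7, lower at -0.70 and -0.45. All 5 sensing genes were higher: SREBF2 by 1.29 (adjusted p = 3.91e-05), INSIG2 by 1.04 (adjusted p = 0.00426), INSIG1 by 0.90 (adjusted p = 0.0422), SREBF1 by 0.83 (adjusted p = 0.000621) and SCAP by 0.44 (adjusted p = 0.0102), all by edgeR. INSIG1 had few intron reads, 15 to 51 in control and 3 to 86 in metformin, and its call was lost without any of 8 libraries (control replicates 1, 2, 4, 5 and 6 and metformin replicates 3, 5 and 6), at 0.70 to 0.92.

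The largest intron changes up were those of MYLIP (2.04, adjusted p = 0.000205), ABCA1 (2.01, adjusted p = 1.92e-06), IDI1 (1.98, adjusted p = 7.08e-07) and HMGCS1 (1.87, adjusted p = 2.58e-07) by edgeR. IDI1 had 60, 71.5 and 105 intron reads in control and 55, 268 and 371 in metformin. HMGCS1 had 35, 50.5 and 87 intron reads in control and 69, 179.5 and 218 in metformin. Replicate 1 held the lowest metformin value of both, and the other metformin libraries, from 186 reads of IDI1 and 103 of HMGCS1, lay above every control.

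CYP51A1 (1.28, adjusted p = 0.000162), LSS (1.20, adjusted p = 0.0163), ACAT2 (0.72, adjusted p = 0.000397), NPC1 (0.75, adjusted p = 0.000327), HSD17B7 (0.65, adjusted p = 0.0155) and SQLE (0.65, adjusted p = 0.0192) were also higher by edgeR, and the call of SQLE was lost without metformin replicate 6, at 0.59. The 3 members lower in intron reads were MVK (-1.37, adjusted p = 2.70e-05), NSDHL (-0.83, adjusted p = 0.00862) and MVD (-0.36, adjusted p = 0.0361). MVK went from 44, 57 and 64 intron reads in control to 8, 16 and 27 in metformin, with no overlap. The call of MVD was lost without any of control replicates 1, 3, 4 and 6 and metformin replicates 3 to 6, at -0.36 to -0.32.

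A gene of at least 10 TPM lies upstream on the same strand within 20 kb of 6 members, which are LSS (MCM3AP, 6309 bp away), SREBF1 (TOM1L2, 6500 bp), ACAT2 (WTAP, 5726 bp), SCAP (ELP6, 18514 bp), NPC2 (LTBP2, 4006 bp) and TM7SF2 (VPS51, overlapping). No such gene lies upstream of the others, HMGCS1, IDI1, INSIG2, SREBF2 and MYLIP among them. SREBF1 and NPC1 also overlap RAI1 (13.6 TPM) and RMC1 (27.0 TPM) on the opposite strand, and the part of these neighbours in the intron reads was not tested.

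**Figure D3:**
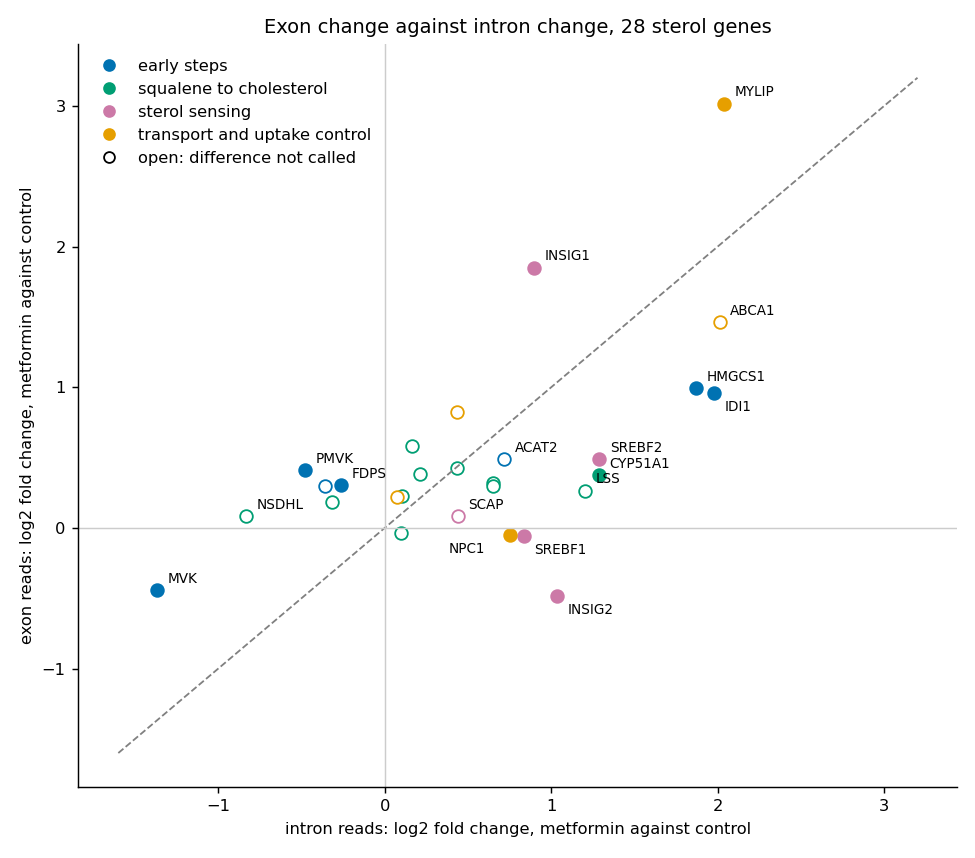
Log2 fold change of metformin against control in intron reads (horizontal) and in exon reads (vertical) for the 28 genes, coloured by role, filled where the difference of the 2 changes has an adjusted p under 0.05; the dashed line marks equal change. MYLIP and INSIG1 lie above the line, and INSIG2, SREBF1, SREBF2, NPC1, CYP51A1, HMGCS1 and IDI1 lie below it.

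Exon and intron changes were compared in 1 edgeR fit over 9917 genes, with the library as a block. The exon change was higher than the intron change in 5 members and lower in 7, against 21.7% and 18.9% of all genes. Without metformin replicate 1 the counts were 6 and 11, against 31.3% and 32.7% of all genes. The calls gained were DHCR7, higher at 0.50, and LSS (-1.23), SCAP (-0.57), SQLE (-0.38) and ACAT2 (-0.31), lower. INSIG2 had the largest gap: the exon minus intron difference was -1.51 on the log2 scale (adjusted p = 0.0015, edgeR), with exon reads that fell and intron reads that rose. Its intron reads made up 5.43%, 8.14% and 11.6% of its gene reads in control and 5.50%, 23.7% and 32.2% in metformin. Replicate 1 lay within the controls, and the other 5 metformin libraries, from 15.4%, lay above them.

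The other members whose exon change was lower, with the difference on the log2 scale, were IDI1 (-1.01, adjusted p = 0.000268), HMGCS1 (-0.94, adjusted p = 0.000581), SREBF1 (-0.92, adjusted p = 0.00267), CYP51A1 (-0.91, adjusted p = 0.00268), NPC1 (-0.83, adjusted p = 0.0175) and SREBF2 (-0.79, adjusted p = 0.000973), all by edgeR. SREBF2 had 5.18%, 5.46% and 6.73% of its gene reads in introns in control and 5.65%, 11.6% and 12.5% in metformin. SREBF1 had 4.22%, 6.05% and 7.77% in control and 4.69%, 13.4% and 14.5% in metformin. For both genes metformin replicate 1 lay within the controls and the other 5 lay above them. Over all genes, the intron share was 5.14% to 7.36% in control libraries and 4.87% to 7.48% in metformin replicates 2 to 6, and the groups overlapped.

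The 5 members whose exon change was higher were MYLIP (1.03, adjusted p = 0.00564), INSIG1 (1.02, adjusted p = 0.0139), MVK (0.84, adjusted p = 0.00884), PMVK (0.75, adjusted p = 0.00117) and FDPS (0.51, adjusted p = 0.0352), all by edgeR. With 1 library size for exon and intron reads in place of separate scaling, only PMVK was called, and MYLIP had 0.90, INSIG1 0.87, MVK 0.69 and FDPS 0.37. The call of FDPS was also lost without any of the 6 controls or metformin replicates 2, 3 and 6, at 0.48 to 0.53, and without metformin replicate 1 it was 0.32 and called. The intron share of INSIG1 was 2.82%, 5.45% and 9.11% in control and 0.739%, 3.37% and 4.41% in metformin, with overlap. That of MYLIP was 8.18%, 12.4% and 17.2% in control and 2.39%, 8.93% and 9.72% in metformin, also with overlap.

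**Figure D4:**
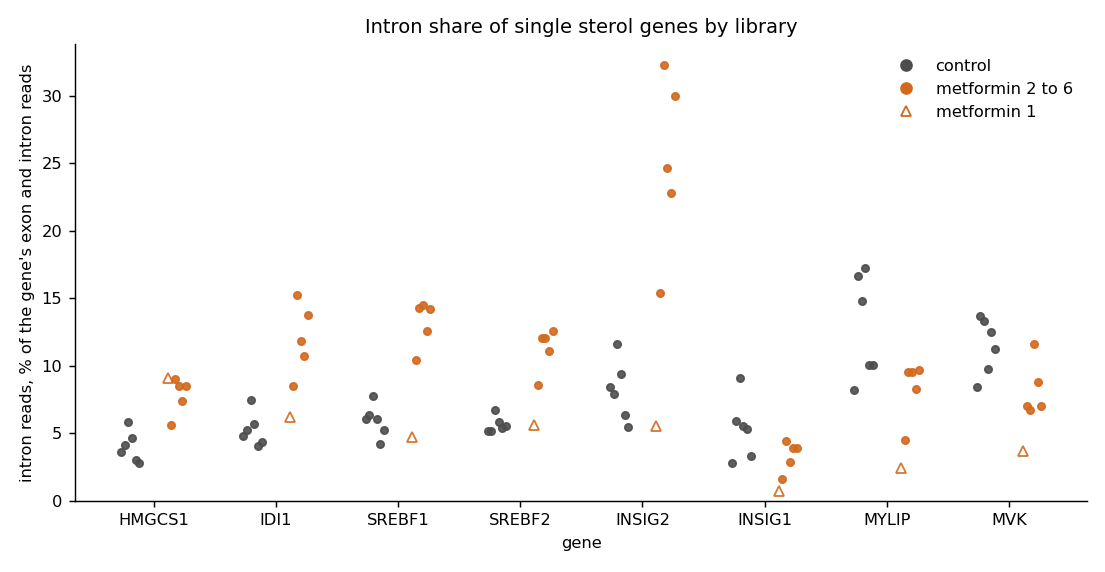
Intron reads as a percentage of the exon and intron reads of the gene (vertical) for 8 genes (horizontal) in each library: grey points are the 6 controls, filled orange points are metformin replicates 2 to 6 and the open triangle is metformin replicate 1. For IDI1, SREBF1, SREBF2 and INSIG2 the 5 filled metformin points lie above all controls, and for INSIG2 they run from 15.4% to 32.2%.

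A list of 35 other genes around the pathway gave the setting, 31 of which passed the filter. By limma 1 was higher and 16 lower, against 8.00% and 41.8% of all genes, with a median log2 fold change of -0.40 against -0.365. By edgeR on exon reads 2 were higher and 6 lower, against 24.5% and 26.0% of all genes, with a median of -0.04 against 0.03. With all libraries, neither site protease that frees SREBP in the Golgi was called by edgeR, and limma called 1 of the 2 lower. Without metformin replicate 1 both were called lower in both fits, at -0.31 and -0.34 by edgeR and -0.54 and -0.51 by limma. In those fits 34.3% of all genes were lower by edgeR and 49.3% by limma. The other counts of this list are given with all libraries only. Of 7 genes of sterol-regulated degradation in the endoplasmic reticulum, edgeR called 1 higher and 2 lower. Of 5 LXR receptors and targets it called 1 higher, of 3 esterification genes none, of 9 sterol transfer and lipoprotein uptake genes 3 lower, and of 5 isoprenoid genes 1 lower.

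The called gene of this list with the largest change was APOE, the apolipoprotein that carries cholesterol in the brain and an LXR target like ABCA1 and MYLIP. It had 0.316, 0.636 and 0.878 TPM in control and 35.2, 40.5 and 69.3 TPM in metformin, a log2 fold change of 4.79 ± 0.16 by limma (adjusted p = 1.34e-09), and it lies 2102 bp downstream of TOMM40 on the same strand. Of the 5 LXR receptors and targets tested in this list, limma called only APOE higher and 2 lower, against 8.00% and 41.8% of all genes. LRP8, a lipoprotein receptor, fell from 13.4, 15.7 and 21.4 TPM to 1.69, 6.72 and 8.66 TPM (-1.35 ± 0.28, adjusted p = 0.00143, limma). GRAMD1B, which moves cholesterol from the plasma membrane inward, fell by 1.15 ± 0.24 (adjusted p = 0.00144, limma), and FAF2, a factor of sterol-regulated degradation, fell by 1.01 ± 0.25 (adjusted p = 0.00461, limma). For LRP8, GRAMD1B and FAF2 edgeR gave -1.08, -0.80 and -0.61, all called.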

How the data were processed

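RNA-seq libraries of 6 control and 6 metformin cultures were grouped by their titles. The authors deposited 1 table per library with TPM, with RPKM and with whole read counts per gene in exons, introns and across junctions, the counts being unnormalized. Aligner, counter and strand use: not given in the sources used here. Mouse builds (GRCm38, mm10) stand in the submitters' processing notes. Human names and positions were used all the same, because GENCODE release 29 holds 21377 of the 21462 identifiers. Start and end were the same as in that release for 12025 of them, so overlaps and distances can differ between annotations.

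The main test was limma 3.58.1 in R 4.3.3 (trended prior, log2(TPM + 1)), following the study's use of limma on TPM at an adjusted p of 0.05. EdgeR 4.0.16 (quasi-likelihood, TMM) was run on exon reads, on intron reads (mean of at least 10) and on the difference of both, and DESeq2 1.42.0 as an alternative. Each was fitted over all genes tested, with Benjamini-Hochberg adjustment. Fold changes on the log2(TPM + 1) scale understate changes of low genes. Alternatives covered the pseudocount, filter, scaling, RPKM, tool, read kind, replicate block and each library left out. The scripts were tested on simulated data. Between replicates, counts differed by more than sampling noise in every pair. Whole reads bound the precision of low genes. Tables and figures came from Python 3.11.15 with pandas 2.3.3 and matplotlib 3.10.9.

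All 28 members are named, by role, and up to 4 called genes of the other list. The members and lists were chosen with earlier results of these data known. The deposited fraction columns were not used.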

Additional observations from a re-analysis of the deposited data

Results flagged for a closer look

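The TPM of 28 members in 2 groups of 6 gave 56 groups of values. In 8 of them 1 library stood apart from the other 5 by Dixon's test at 95%, where chance gives about 2.8, and in 7 of the 8 it was metformin replicate 1. The share of such groups over all genes tested was not computed, so the count is not read as particular to the members. The groups share the same 12 libraries, and metformin replicate 1 was the lowest of its group for 77.6% of all genes tested. This library was lowest for ACAT2 (100.1 TPM), IDI1 (29.92 TPM), FDFT1 (31.87 TPM), SQLE (19.66 TPM) and SC5D (4.057 TPM). It was highest for MVD (38.49 TPM) and EBP (226.7 TPM). The other was control replicate 3, lowest for MVD at 27.83 TPM. Metformin replicate 1 also had the fewest exon reads and the lowest shares of junction and intron reads of the 12 libraries, and the part these play in the values was not tested.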

How the results depend on the processing

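Of 1876 values of single members under the alternatives, 1614 kept their direction and their side of the threshold, 75 gained a call, 68 lost one and 37 reversed, and 82 changed sign without a call in either fit, which was taken as no direction. The cause was not tested for any of these. A value counts as reversed where its sign changed and either the main fit or the alternative called it, but never both. The reversals of the limma values of TPM were CYP51A1 0.40, DHCR7 0.21, LSS 0.29, MSMO1 0.25, NSDHL 0.036 and SCAP 0.10 after median-ratio scaling. They were LSS 0.19, MSMO1 0.29, SC5D 0.42, SREBF1 0.0073 and TM7SF2 0.18 after quantile normalization. By edgeR on exon reads they were CYP51A1 0.38, LSS 0.27, MSMO1 0.23, NSDHL 0.085 and SCAP 0.086. By DESeq2 they were CYP51A1 0.41, DHCR7 0.21, LSS 0.29, MSMO1 0.26, NSDHL 0.12, SC5D 0.41 and SCAP 0.12. By edgeR on junction reads they were HSD17B7 0.41, SCAP 0.14 and SQLE 0.40. Leaving out each library gave SC5D -0.16 to 0.27 and SQLE -0.24 to 0.22, and in the edgeR fit of exon reads NSDHL -0.21 to 0.17, with the reversed value without metformin replicate 1 each time. With median-ratio scaling and without that library, a setting chosen after seeing the data, they were CYP51A1 0.42, DHCR7 0.14, HSD17B7 0.42, LSS 0.27, MSMO1 0.23, SC5D 0.52, SQLE 0.49 and STARD4 0.38.

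Against 2 members higher and 6 lower by limma, median-ratio scaling gave 13 and 2, quantile normalization 10 and 1, RPKM 4 and 7, edgeR on exon reads 12 and 2, DESeq2 14 and 2, edgeR on junction reads 9 and 1, and median-ratio scaling without metformin replicate 1 gave 17 and 2. Pseudocounts and filters gave 2 higher and 5 to 7 lower, against 655 to 1642 and 3569 to 5206 of 9031 to 17479 genes. Leaving out each library gave 2 to 10 higher and 5 to 9 lower. Over all 11306 genes, limma called 5630, with 905 higher and 4725 lower, median-ratio scaling 2649 and 2887, and quantile normalization 2342 and 3073. RPKM gave 1071 and 5468, edgeR on exon reads 2768 and 2937, and DESeq2 3267 and 2987. EdgeR on junction reads called 3145 of 11080 genes, 1377 higher and 1768 lower. Median-ratio scaling without metformin replicate 1 gave 3834 and 3769. Leaving out each library gave limma 811 to 1933 genes higher and 4156 to 5574 lower. In exon reads, 1 member was lower with DESeq2 size factors, against 2789 of 11306 genes. Leaving out each library gave 11 to 17 members higher and 1 to 3 lower, against 2298 to 3666 and 2665 to 3878 genes. In intron reads, 1 member was lower with exon library sizes, against 2614 of 11118 genes. Leaving out each library gave 13 to 16 members higher and 2 to 5 lower, against 3127 to 4052 and 3149 to 4227 genes. A minimum of 50 intron reads kept 15 members, with 10 higher and 2 lower, and 6349 genes, with 1995 higher and 1896 lower. That left 3891 of 6842 calls over all genes, fewer genes being tested. The exon change was higher in 1 member with 1 library size, against 1439 of 9917 genes. It was higher in 2 members at that minimum, against 1326 of 6092 genes. There 2622 genes were called, against 4032 in the main fit. Leaving out each library gave 4 to 6 members and 7 to 11, and 3511 to 6351 genes.

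Libraries with the same number deviated together in some pairs only, with r from -0.645 to 0.725 and over 0.1 in 3 of 6 pairs. The numbers were not taken as pairs, since only 2 of 6 controls were closest to their own number. Some libraries of different numbers also deviated together, with r of 0.645 for control 6 and metformin 1 and 0.712 for control 3 and metformin 6. Others deviated in opposite ways, with r of -0.686 for control 3 and metformin 1. The source of these shared deviations was not tested. With a replicate block, limma called 3 members higher and 6 lower, edgeR 12 and 2 in exon reads and 13 and 2 in intron reads. Over all genes these fits called 915 higher and 4770 lower, 2468 and 2919, and 3149 and 3275. Depth limits the intron values, since several members had fewer than 50 such reads per library.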
